A study of Homo sapiens with 6 samples.

Results

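Bidirectional protein-coding promoters were collected from the gene annotation as pairs of protein-coding genes on opposite strands, with the start of the minus-strand gene lying before that of the plus-strand gene and at most 1000 bp away. Each region was the span between the starts plus 500 bp on each side. GENCODE release 44 gave 887 such pairs, built from 1710 of the 19970 protein-coding gene starts on the autosomes and chromosome X. Peaks came from 5 ChIP-seq libraries of MDA-MB-231, an established line of triple-negative human breast cancer. Of these, 3 mapped the transcription factor E2F1 in cells left untreated, exposed to the vehicle DMSO for 72 h, or exposed for 72 h to 1 µM GSK126, which inhibits the histone methyltransferase EZH2. The other two mapped the histone mark H3K27me3 after lentiviral delivery of a control shRNA or of one targeting E2F1 (shE2F1), 24 h of transduction being followed by 72 h of selection with 2 µg/ml puromycin. Each condition had 1 library, so differences between conditions have no replicate check and no p-value is given. The level of E2F1 after knockdown is not measured by these files, and the input of untreated cells was not analysed here.

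A bidirectional promoter drives the transcription of a pair of genes in opposite directions from a shared stretch of DNA that is usually a CpG island. Many genes of DNA repair, DNA replication and mitochondrial function are arranged in this way. E2F1 activates genes of DNA synthesis and cell division through the E2F motif, whereas EZH2, the catalytic subunit of Polycomb repressive complex 2, places H3K27me3 on repressed chromatin.

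The starts of a pair lay close together. The median distance was 132 bp, the quartiles were 69 and 248.5 bp, and 80.8% of the pairs had starts at most 300 bp apart. Of the 887 regions, 123 overlapped another one and 824 regions remained when overlapping ones were merged. The median GC content of the regions was 61.2%. The 16492 one-way promoters, which are protein-coding starts with no other protein-coding start within 1000 bp, had a median of 56.9% over windows of the same lengths. The ratio of observed to expected CpG dinucleotides was also higher at bidirectional promoters, with a median of 0.770 against 0.626. One-way promoters were therefore weighted so that their GC content, in bins of 2%, and their length followed the bidirectional promoters. After this step the CpG ratio of the one-way promoters still had a median of 0.716, so comparisons weighted on GC and CpG together are given beside the main ones.

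The E2F motif is shown first where E2F1 was strongest, in the 6 pairs with the highest fold enrichment in untreated cells. Each line gives 30 bases of the plus strand of GRCh38 around the E2F motif nearest to the untreated E2F1 summit, the position of the highest signal. Capitals mark the motif, which was TTNNCGC on either strand with each N being C or G.
CENPK/PPWD1, chr5:65562947-65562976: tgcgttggcgcGCGGGAAgccgagaagaac
KIAA1143/KIF15, chr3:44761740-44761769: gtccgatccaaGCGCCAAattcaaatttgc
ALDH6A1/LIN52, chr14:74084921-74084950: ggaacctcgttTTCCCGCcgacggttggcc
RECQL/GOLT1B, chr12:21501597-21501626: ggagtaaaatcTTCCCGCcagccagctgag
SMC1B/RIBC2, chr22:45413608-45413637: gcggaaaaagcGCGGGAAgggattcgccaa
LMF2/NCAPH2, chr22:50508225-50508254: cattttcctggGCGGGAAcagcaaaatggc
The middle of the motif lay 7 bp from the summit in SMC1B/RIBC2, 11 bp in LMF2/NCAPH2, 12 bp in ALDH6A1/LIN52, 21 bp in RECQL/GOLT1B and 22 bp in KIAA1143/KIF15. In CENPK/PPWD1 the nearest motif was 214 bp away from the summit, inside CENPK.

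The DNA between the starts of a pair was short, as shown for 5 of the pairs named below whose span holds no annotated exon. All are on the plus strand of GRCh38. Capitals mark E2F motifs and CCAAT boxes (CCAAT or ATTGG), the binding sequence of the factor NF-Y.
CENPK/PPWD1, chr5:65563169-65563235: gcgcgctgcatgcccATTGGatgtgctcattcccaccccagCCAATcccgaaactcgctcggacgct
RECQL/GOLT1B, chr12:21501670-21501780: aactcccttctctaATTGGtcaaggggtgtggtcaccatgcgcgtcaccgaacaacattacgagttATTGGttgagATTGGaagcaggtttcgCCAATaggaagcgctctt
SMC1B/RIBC2, chr22:45413620-45413692: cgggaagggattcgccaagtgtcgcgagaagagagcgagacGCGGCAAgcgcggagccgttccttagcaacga
PPAT/PAICS, chr4:56435616-56435740: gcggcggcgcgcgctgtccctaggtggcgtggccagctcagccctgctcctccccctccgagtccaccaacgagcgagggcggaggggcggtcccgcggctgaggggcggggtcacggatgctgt
COL4A4/COL4A3, chr2:227164454-227164623: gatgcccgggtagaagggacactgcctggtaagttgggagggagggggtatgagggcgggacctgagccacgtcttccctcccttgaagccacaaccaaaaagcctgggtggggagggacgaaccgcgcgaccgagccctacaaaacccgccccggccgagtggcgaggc
The span of CENPK/PPWD1 held 2 CCAAT boxes in opposite orientation and that of RECQL/GOLT1B held 4. Neither held an E2F motif, and the motifs shown above for these pairs lay on the gene side of the CENPK and RECQL starts.

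To ask how often E2F1 sat at bidirectional promoters, each region was scored for an overlapping E2F1 peak. In untreated cells 108 of the 887 regions had a peak, which is 12.2% (95% interval 10.1% to 14.5%), whereas 4.77% of all protein-coding gene starts did. In DMSO 469 regions had one, 52.9% (49.5% to 56.2%), against a background of 27.5% of all starts. In GSK126 714 regions had one, 80.5% (77.7% to 83.1%), against 44.2% of all starts. Regions of a library are not replicates of a condition, and these intervals are exact Clopper-Pearson intervals and cover counting error only, as do all intervals of shares below.

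One-way promoters of the same GC content and length were occupied less often in each of the 3 E2F1 lists. Their weighted shares were 4.61% without treatment, 31.2% with DMSO and 50.2% with GSK126, so bidirectional promoters stood higher by 7.57, 21.7 and 30.3 percentage points. When CpG was weighted too, the differences were 5.996, 12.7 and 17.5 points. The gap was present at every GC content in GSK126. Among the 296 members of lowest GC 69.3% were occupied against 35.7% of one-way promoters, and among the 296 of highest GC 89.2% were occupied against 62.6%. The lists differed in size, with 1056 untreated, 15703 DMSO and 14276 GSK126 peaks, and the fragments expected over any base, recovered from the peak values, were 0.668, 1.82 and 1.70. Limited to its 1056 strongest peaks each, the DMSO list reached 13.8% and the GSK126 list 13.2% of the bidirectional promoters, close to the untreated share.

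**Figure D1:**
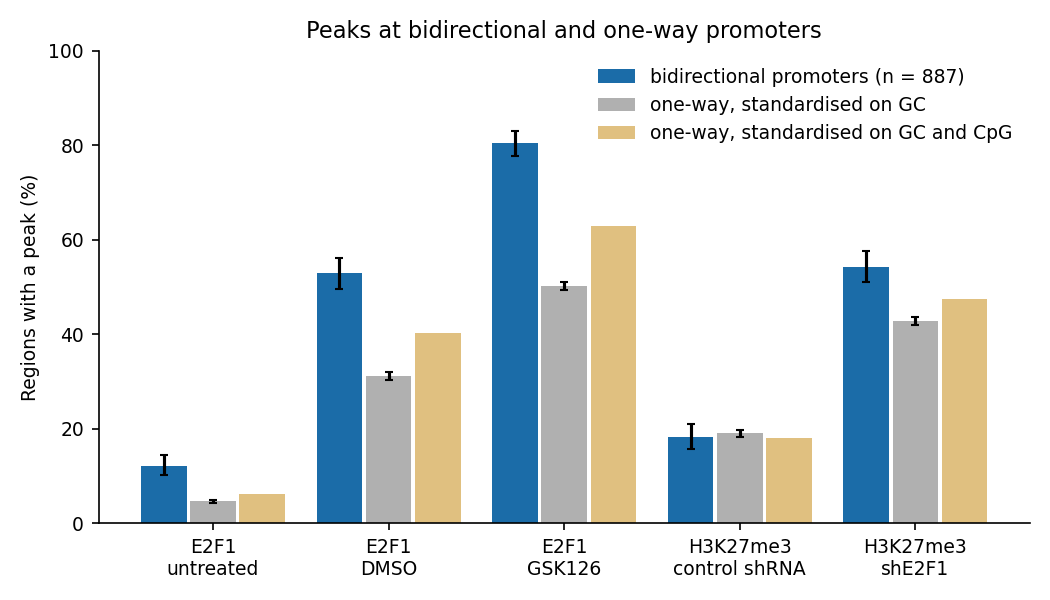
Share of regions with a peak in each library (vertical axis, percent) for the 887 bidirectional promoters and for one-way promoters weighted to the same GC content and length, or also to the same CpG ratio. Error bars are 95% intervals of counting error, drawn for the first and second bar of each group. The blue bar is the highest in all 3 E2F1 libraries and in H3K27me3 with shE2F1, and about level with the others in the control shRNA library.

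Occupancy was also compared between classes of spacing of the starts. In untreated cells 31 of 342 pairs with starts 1 to 100 bp apart had an E2F1 peak, 9.06% (6.24% to 12.6%), whereas 27 of 122 pairs with starts over 200 and up to 300 bp apart had one, 22.1% (15.1% to 30.5%). The classes of wider spacing had 14.9% (8.39% to 23.7%) and 11.8% (5.56% to 21.3%), with intervals that overlap both. The first-named classes had similar GC content, with medians of 61.1% and 60.6%. In DMSO the shares of the 5 spacing classes lay between 46.1% and 60.7%, and in GSK126 between 75.0% and 85.1%, in both with overlapping intervals.

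The E2F1 lists were nested at these promoters. A peak in all 3 lists was found at 106 regions, one shared by DMSO and GSK126 that the untreated list lacked at 362, a peak in GSK126 alone among the 3 at 244, and no peak at 172. The remaining 3 regions showed another combination, a DMSO peak alone at ATP6V1G2-DDX39B/NFKBIL1 and an untreated and a GSK126 peak at GPATCH2/SPATA17 and NMBR/VTA1. Of one-way promoters with the same GC content and length 49.4% had no E2F1 peak, against 19.4% of the bidirectional ones.

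Peak strength is given by class as a description. The classes rest on which peaks were called in lists of unlike length and depth, so part of their order in strength is built in. The E2F1 fold is the authors' ratio of signal to background at the summit. In GSK126 its median was 24.1 at regions found in all 3 lists and 9.32 at those shared by DMSO and GSK126. Regions of GSK126 alone had a median of 5.12. In DMSO the medians of the first 2 classes were 13.9 and 5.58. Over all occupied regions the median fold was 8.98 in untreated cells (interval from order statistics 7.99 to 9.82), 6.37 in DMSO (6.04 to 6.83) and 8.14 in GSK126 (7.52 to 8.62). Occupied one-way promoters of the same GC content had medians of 8.00, 5.94 and 7.61, so strength differed far less between the promoter types than occupancy did.

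The 6 pairs with the strongest E2F1 peaks in untreated cells are described next, of which ALDH6A1/LIN52 and SMC1B/RIBC2 hold no gene of the cell-cycle lists used below. CENPK/PPWD1 on chromosome 5 had the highest fold, 31.8 without treatment, 46.8 in DMSO and 79.1 in GSK126. CENPK is a kinetochore protein and PPWD1 a peptidyl-prolyl isomerase. KIAA1143/KIF15 on chromosome 3, where KIF15 is a mitotic kinesin, had folds of 27.5, 27.1 and 52.2 in the same order. ALDH6A1/LIN52 on chromosome 14 had folds of 24.0, 51.4 and 73.6. LIN52 belongs to the MuvB complex, which represses cell-cycle genes in quiescence.

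The other 3 of the 6 strongest pairs were RECQL/GOLT1B, SMC1B/RIBC2 and LMF2/NCAPH2. RECQL, a DNA helicase, shared its region with folds of 16.6 without treatment, 11.7 in DMSO and 19.9 in GSK126. SMC1B, a cohesin subunit of meiosis, had 16.2, 20.7 and 36.3. NCAPH2, a subunit of condensin II, had 15.6, 17.5 and 39.7. GSK126 gave the highest value at all 6 pairs, while DMSO lay below the untreated value at KIAA1143/KIF15 and RECQL/GOLT1B.

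The position of E2F1 within the regions was then examined. All summits that fell inside a region were counted. In untreated cells 38 of 105 of these lay between the starts, 36.2% (27.04% to 46.1%), whereas the spans made up 16.9% of the length of these regions. In DMSO and GSK126 27.7% of the summits lay between the starts, over spans making up 15.3% and 15.2% of the length. The length share assumes even placement, but summits gathered at one-way starts too. There 41.1% without treatment, 40.01% in DMSO and 42.6% in GSK126 lay within 100 bp of the start. The share between the starts that summits centred on starts would give was not computed. Summits stayed near a start. The median distance to the nearer start was 68 bp without treatment, 89 bp in DMSO and 69 bp in GSK126, and where the starts were 1 to 100 bp apart 13.7% of the GSK126 summits fell between them. A single peak covered both starts at 35 of the 108 regions occupied without treatment, at 271 of 469 in DMSO and at 531 of 714 in GSK126. Peaks of the whole lists differed in width in the same order, with medians of 302, 436 and 618 bp. The part of width in these counts was not tested.

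**Figure D2:**
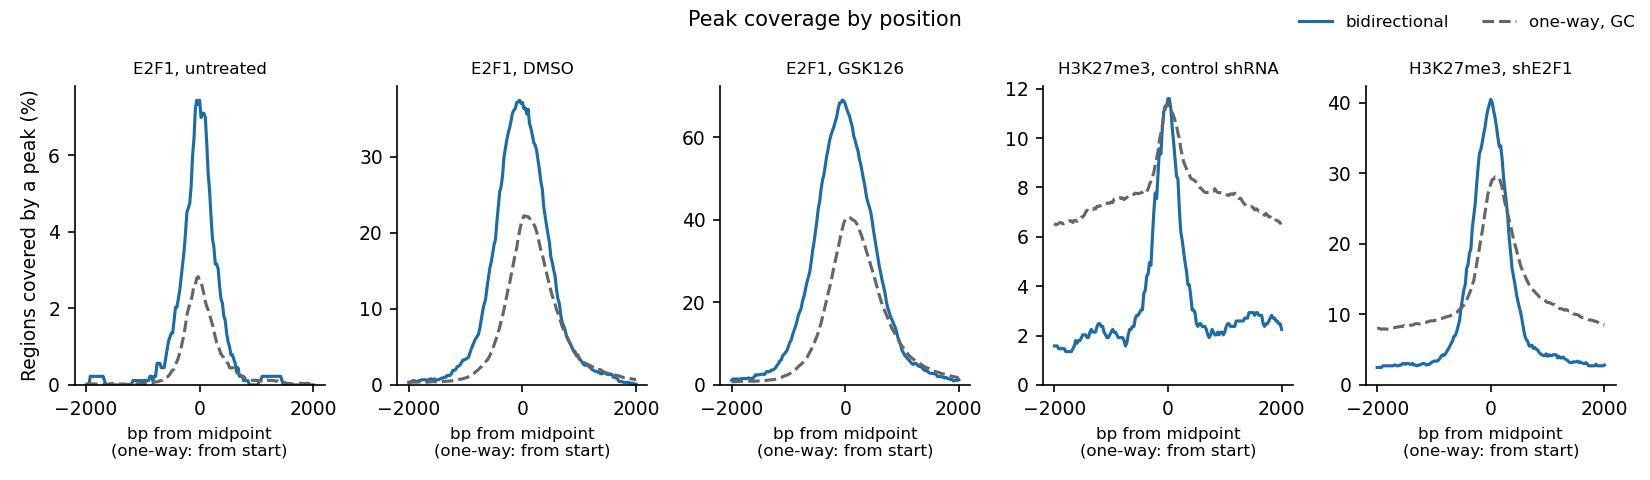
Share of regions covered by a peak (vertical axis, percent, a scale of its own in each panel) against the distance in bp from the midpoint between the starts of the 887 bidirectional promoters, or from the start of one-way promoters of the same GC content with the gene to the right. E2F1 coverage is nearly symmetric at bidirectional promoters. H3K27me3 coverage is a narrow central peak at bidirectional promoters, and falls below the one-way line away from the centre.

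E2F1 summits lay on the side of the cell-cycle gene. Pairs were taken in which exactly 1 of the genes belongs to the lists of DNA replication, DNA repair and checkpoint, mitosis or replication-dependent histones, and the strongest summit inside the region was compared with both starts. In untreated cells it was nearer to the listed gene in 30 of 33 pairs, 90.9% (75.7% to 98.1%). The same held for 57 of 68 pairs in DMSO, 83.8% (72.9% to 91.6%), and for 59 of 69 pairs in GSK126, 85.5% (75.0% to 92.8%). To the listed start the median distance was 68, 59.5 and 67 bp in the same order, against 212, 182 and 180.0 bp to the partner. In 23 of the 33 untreated pairs the summit was inside the listed gene.

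Single pairs show the size of this offset in untreated cells. The summit was 20 bp from the start of POLE, the catalytic subunit of DNA polymerase epsilon, and 231 bp from that of its partner PXMP2. It was 26 bp from NCAPH2 and 548 bp from LMF2. It was 3 bp from POLH, a translesion DNA polymerase, and 150 bp from XPO5. At HNRNPK/RMI1 it was 14 bp from RMI1, a subunit of the BLM helicase complex, and 153 bp from HNRNPK, an RNA-binding protein. The 3 pairs in which the partner was nearer were KIF18A/METTL15, WDHD1/SOCS4 and SKA2/PRR11.

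The same count for pairs with a gene of other functions rests on few pairs and has wide intervals. With GSK126 the strongest summit was nearer to the listed gene in 7 of 12 pairs with a cytosolic ribosomal protein gene (27.7% to 84.8%) and in 9 of 17 with a gene of oxidative phosphorylation (27.8% to 77.02%), both overlapping the interval of the cell-cycle pairs. It was nearer in 8 of 18 with a zinc finger gene (21.5% to 69.2%) and in 3 of 14 with a mitochondrial ribosomal protein gene (4.66% to 50.8%), which do not overlap it. The difference between lists was not tested, and the 3 E2F1 lists hold many of the same pairs, so they are no independent repeats.

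**Figure D3:**
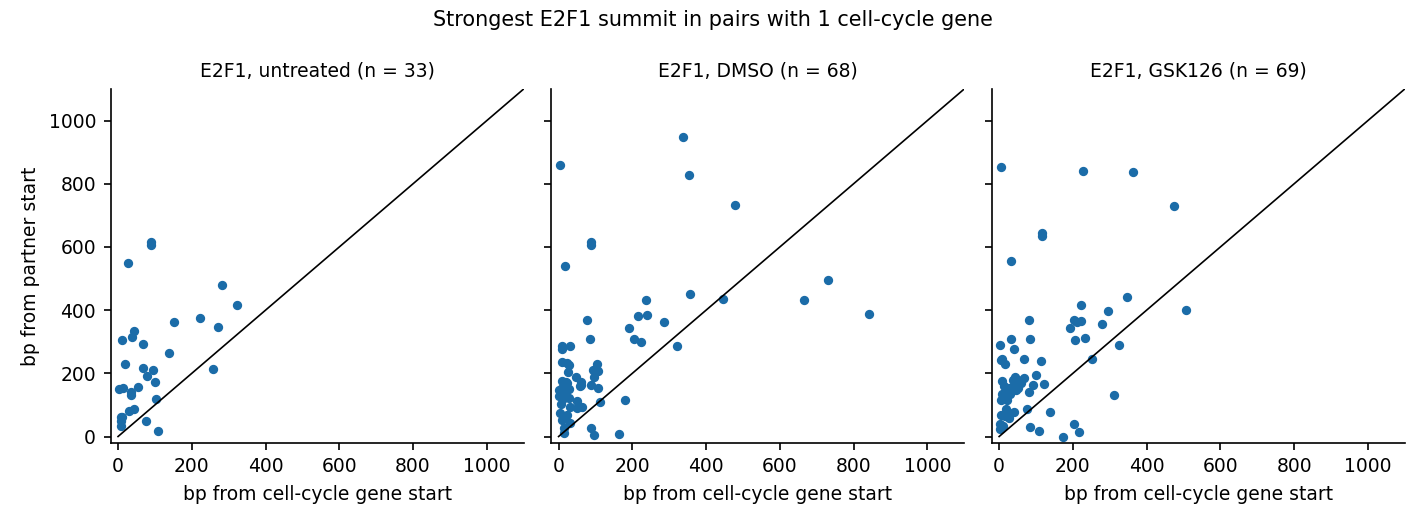
Distance in bp of the strongest E2F1 summit from the start of the cell-cycle gene (horizontal axis) and from the start of its partner (vertical axis), for pairs with exactly 1 such gene, in each E2F1 library. Points above the line of equal distance, 30 of 33, 57 of 68 and 59 of 69, are nearer to the cell-cycle gene.

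The E2F motif was more often near the listed start, with overlapping intervals. Within 100 bp of the start it was present at 32 of 82 listed genes, 39.0% (28.4% to 50.4%), and at 18 of their 82 partners, 22.0% (13.6% to 32.5%). It was found at the listed start alone in 20 pairs and at the partner start alone in 6. In the 789 pairs without a listed gene the share was 15.7% at the minus-strand start and 14.4% at the plus-strand start.

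Over whole regions 475 of the 887 bidirectional promoters held an E2F motif, 53.6% (50.2% to 56.9%). The share was 44.4% at one-way promoters of the same GC content and length, 50.9% when CpG was weighted too, and 33.8% of all one-way promoters in windows as long as the shortest spacing class. The motif was more frequent where E2F1 was found in more lists, from 63 of 172 regions without E2F1 (36.6%, 29.4% to 44.3%) and 41.4% of the 244 with a peak in GSK126 alone (35.1% to 47.9%) to 218 of 362 shared by DMSO and GSK126 (60.2%, 55.0% to 65.3%) and 90 of 106 in all 3 lists (84.9%, 76.6% to 91.1%). Within 100 bp of the summit it was present at 66.7% of summits without treatment, 40.7% in DMSO and 31.7% in GSK126.

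Bidirectional promoters without the motif were bound as well. In GSK126 303 of the 412 regions that lack it had a peak, 73.5% (69.0% to 77.7%), against 39.9% of one-way promoters that lack it. In untreated cells 16 of these 412 regions had one, 3.88%, while 92 of the 475 regions with the motif did, 19.4%.

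Among the other promoter motifs searched, the ETS core had the widest gap to one-way promoters. The ETS core CCGGAAGT, recognised by factors such as GABPA, was present in 168 regions, 18.9% (16.4% to 21.7%), against 7.07% of one-way promoters of the same GC content. The NRF1 core GCATGCGC was present in 12.3% (10.2% to 14.6%), against 6.97%. CCAAT was present in 70.2% and 67.3%, and the GC box GGGCGG, bound by SP1, in 93.0% and 87.3%, the last becoming 93.3% when CpG was weighted too. All were searched on both strands. Over all one-way promoters in windows as long as the shortest spacing class these motifs were found in 5.66%, 5.34%, 67.5% and 69.0%. The ETS core did not follow the E2F1 lists in the way the E2F motif did, at 16.0% (9.63% to 24.4%) in the regions of all 3 lists, 22.1% (17.9% to 26.7%) in those shared by DMSO and GSK126 and 11.6% (7.25% to 17.4%) in those without E2F1.

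Next, E2F1 was compared between GSK126 and DMSO. In the 468 regions with a peak in both lists the fold of the strongest peak was higher in GSK126 at 460 and higher in DMSO at 8. The median log2 ratio of GSK126 over DMSO was 0.76 (0.72 to 0.80), with quartiles of 0.55 and 0.94. It was at least 1.5-fold higher in GSK126 at 334 regions, 71.4%, and at least 1.5-fold lower at 0 of 468, whereas 68.2% and 0.0554% of all protein-coding starts with both peaks passed these limits. One-way promoters of the same GC content had a median of 0.73, so the shift at bidirectional promoters was that of promoters in general. Computed from fragments over the genome-wide background instead of the fold, the median was 0.78.

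Sites present in GSK126 only were then counted. A peak in GSK126 and none in DMSO was found at 246 regions, 27.7% (24.8% to 30.8%), against 19.4% of one-way promoters of the same GC content and 17.1% of all starts. The opposite pattern was found at 1 region, 0.113%, where 0.381% of all starts showed it. These sites were weak, with a median GSK126 fold of 5.18 against 10.8 at regions occupied in both lists. The part of the calling limit in this was not tested. As a share of the regions occupied in GSK126, the order was the other way, since 34.5% (30.97% to 38.1%) of the occupied bidirectional promoters lacked a DMSO peak, against 38.7% of occupied one-way promoters of the same GC content and 38.6% of all occupied starts. A GSK126 peak was present at 99.8% of the regions occupied in DMSO.

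**Figure D4:**
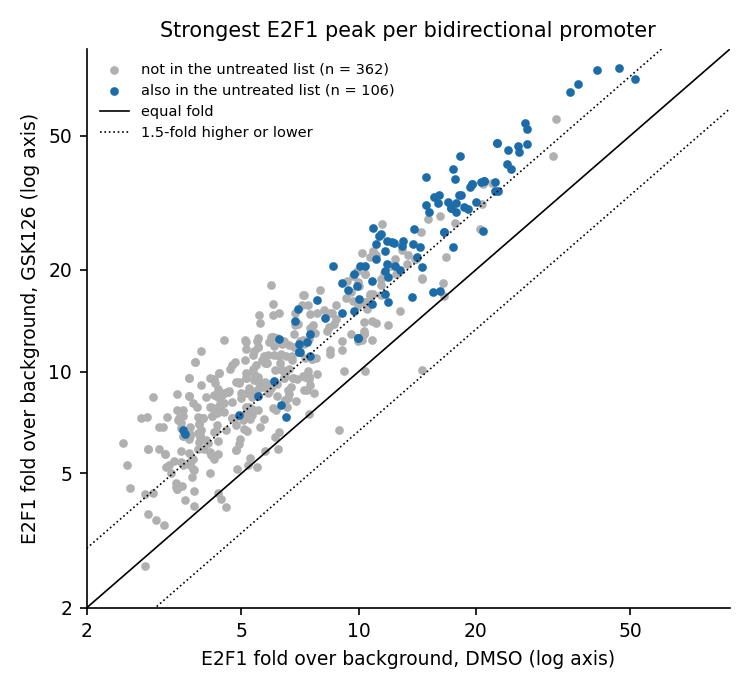
Fold over background of the strongest E2F1 peak in DMSO (horizontal, log axis) and in GSK126 (vertical, log axis) for the 468 bidirectional promoters with a peak in both lists. Nearly all points lie above the line of equal fold, and the 106 regions also found in untreated cells lie mostly at the upper end.

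The pairs at the ends of the range were examined singly. DCUN1D2/TMCO3 on chromosome 13 had the highest ratio, with a fold of 5.96 in DMSO and 18.1 in GSK126. CORO7/DNAJA3 followed with 3.94 and 11.5, ERP44/INVS with 2.97 and 8.41, and CCDC127/SDHA with 3.80 and 10.7. SDHA is a subunit of succinate dehydrogenase, and an unnamed gene starting beside it gives the same region a further time. The DMSO summit lay 271 bp inside CORO7 and the GSK126 summit 79 bp on the other side of its start. At ERP44/INVS they lay 97 and 226 bp from the ERP44 start, and at CCDC127/SDHA 188 bp outside and 65 bp inside CCDC127. By fragments over the genome-wide background the log2 ratios of these pairs were lower than by fold. They were 1.23, 1.17 and 0.78 in the order named, the last equal to the median by that measure. DCUN1D2/TMCO3 had 1.65 by fragments. At ARL3/SFXN2 the fold was 14.6 in DMSO and 10.1 in GSK126, the lowest log2 ratio (-0.53). The DMSO summit there lay 499 bp inside ARL3 and the GSK126 summit 157 bp on the other side of the ARL3 start, so the values belong to different positions in the region. The fragments over the genome-wide background gave this pair a log2 ratio of 0.79. EXTL2/SLC30A7, with 8.90 and 6.73, was alike, its summits lying 349 bp inside EXTL2 in DMSO and beyond the SLC30A7 start in GSK126.

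Gene lists were then looked up among the pairs. Genes of DNA repair and checkpoint, DNA replication and mitosis were in a bidirectional pair more often than protein-coding genes in general (8.57%), at 38 of 134, 19 of 71 and 26 of 111 genes. Of the 27 pairs with a mitosis gene, 15 had an E2F1 peak without treatment, 25 in DMSO and 27 in GSK126. The 39 pairs with a repair gene gave 14, 32 and 35, and the 19 pairs with a replication gene 7, 17 and 18. Without treatment this was 55.6%, 35.9% and 36.8% of the pairs, against 12.2% of all bidirectional promoters. The one-way promoters of these lists were occupied without treatment at 43.8%, 28.6% and 44.2%, so the share for replication genes was not higher at bidirectional promoters. In DMSO the pairs were at 92.6%, 82.1% and 89.5%, against 78.1%, 63.6% and 86.05% of these one-way promoters. In GSK126 all mitosis pairs, 89.7% of repair and 94.7% of replication pairs were occupied, against 92.2%, 70.1% and 88.4% of these one-way promoters. The replication pairs lay closest to their one-way promoters in both lists. These one-way shares were not weighted on GC, and the differences were not tested.

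The DNA replication pairs with the highest DMSO fold were LIG1/ZSWIM9, TK1/AFMID and TMEM258/FEN1. LIG1, the DNA ligase that joins Okazaki fragments, had folds of 8.41 without treatment, 27.1 in DMSO and 47.1 in GSK126. TK1, thymidine kinase, had 11.5, 26.8 and 54.3. FEN1, the flap endonuclease, had 11.5, 22.7 and 47.4. The MCM2 pair TPRA1/MCM2, with a helicase subunit, had no untreated peak and folds of 20.5 and 26.5.

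Repair and mitosis pairs with a high DMSO fold are given next. HNRNPK/RMI1 had folds of 5.57 without treatment, 25.8 in DMSO and 44.6 in GSK126. SLBP/TACC3 had 12.9, 35.0 and 67.1, where SLBP binds the stem-loop of histone mRNA and TACC3 acts on the spindle. FOXM1/TULP3, with a transcription factor of mitotic genes, had 14.6, 25.7 and 46.5. All 3 were higher in GSK126 than in DMSO by at least the median over bidirectional promoters, with log2 ratios of 0.79, 0.94 and 0.86. Over the whole lists the median was 0.66 at 32 repair pairs and 0.80 at 25 mitosis pairs, against 0.76 over all bidirectional promoters.

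Replication-dependent histone genes often lie head to head, and 27 of 69 were in 15 pairs covering 13 distinct regions. E2F1 was present at 2 of the 15 in untreated cells, which are a single region with H2BC17. It was present at the same number, 8, in DMSO and in GSK126. These were 13.3%, 53.3% and 53.3% of the pairs, against 12.2%, 52.9% and 80.5% of all bidirectional promoters. H2BC11/H2AC11 had the highest fold, 32.2 in DMSO and 56.0 in GSK126, though the summits lay outside the region on the side of H2BC11. H2BC12/H2AC12 had 16.6 and 16.7. All 15 pairs held an E2F motif, against 53.6% of all bidirectional promoters. Histone genes are near-identical copies, so reads may be shared between them.

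Ribosomal, mitochondrial and zinc finger genes were looked up in the same way. All 12 pairs with a cytosolic ribosomal protein gene had an E2F1 peak in DMSO and in GSK126 and 2 had one in untreated cells. RPS16/SUPT5H had folds of 10.9 in DMSO and 22.8 in GSK126, and RPL35/ARPC5L had 8.05 in untreated cells, 16.2 and 17.3. Of 18 pairs with a mitochondrial ribosomal protein gene 1 was occupied without treatment, 6 in DMSO and 15 in GSK126. The 21 pairs with a gene of oxidative phosphorylation gave 1, 8 and 17, and the 30 pairs with a zinc finger gene gave 0, 9 and 24. In the last 3 lists the share in DMSO was 33.3%, 38.1% and 30.0%, below the 52.9% of all bidirectional promoters, and the share in GSK126 was 83.3%, 81.0% and 80.0%, level with the 80.5% of all. The lists of aminoacyl-tRNA synthetases and type IV collagens had 3 and 2 pairs, of which 2 and 1 were occupied in both DMSO and GSK126.

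Pairs long known as bidirectional differed widely. NPAT/ATM pairs an activator of histone genes with the kinase of the DNA damage response, and had folds of 6.30 without treatment, 14.9 in DMSO and 31.2 in GSK126, with the summits 36 to 45 bp from the NPAT start, between the genes. PPAT/PAICS, enzymes of purine synthesis, had 10.1, 24.6 and 39.8, with the summits inside PAICS and 403 to 417 bp from the PPAT start. PRKDC/MCM4, a DNA repair kinase and a subunit of the replicative helicase, had no untreated peak and folds of 22.0 and 36.2, and its summits lay beyond the region on the MCM4 side. COL4A4/COL4A3, chains of basement membrane collagen, had 4.72 and 8.15 with the summits inside COL4A4. COL4A6/COL4A5 and PDCD10/SERPINI1 had no E2F1 peak.

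H3K27me3 was compared between the knockdown and its control. The lists held 123957 control shRNA and 135683 shE2F1 peaks, and the depth of these libraries was not computed. A control shRNA peak was present at 162 of the 887 regions, 18.3% (15.8% to 21.0%), against 17.5% of all starts. With shE2F1 a peak was present at 482 regions, 54.3% (51.0% to 57.7%), against 38.5% of all starts. A peak with shE2F1 and none in the control was found at 327 regions, 36.9%, where 23.1% of all starts showed this, and the opposite at 7 regions, 0.789%, where 2.15% did. The share was thus 36.1 percentage points (32.8 to 39.3) higher with shE2F1, a difference called the gain below. Intervals of the gain are normal approximations from the regions with a peak in a single list, not Clopper-Pearson intervals. One-way promoters of the same GC content went from 19.0% to 42.8%, a gain of 23.9 points, or of 29.5 points when CpG was weighted too.

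The peaks behind this difference were narrow and mostly weak. The median width of the peaks at bidirectional promoters was 373.5 bp in the control and 532 bp with shE2F1, while the lists as a whole had medians of 722 and 811 bp. At the midpoint 11.6% of the regions were covered in the control and 40.5% with shE2F1, but 2000 bp to the left of it the shares were 1.58% and 2.48%. At one-way promoters of the same GC content, 11.4% and 28.5% were covered at the start and 6.55% and 8.01% at 2000 bp upstream. The median −log10 q of the peaks found with shE2F1 alone was 2.68, and 52 of the 327 reached 5. With this limit on both lists the gain was 12.2 points.

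Regions with a peak in both lists had higher values with shE2F1. The H3K27me3 lists give no summit, so their fold is not a summit value. The fold of the strongest H3K27me3 peak was higher with shE2F1 at 130 of 155 regions. The median log2 ratio of shE2F1 over control was 0.42 (0.32 to 0.51), against 0.03 at one-way promoters of the same GC content. Over all bidirectional promoters with a peak in the list concerned, the median fold was 4.00 in the control and 3.67 with shE2F1. Among the 155 regions, the 131 with an E2F1 peak in GSK126 had a median log2 ratio of 0.47 (0.37 to 0.54). At the 24 without one it was 0.02 (-0.10 to 0.30). One-way promoters of the same GC content had medians of 0.35 with and -0.06 without such a peak, so the value went with E2F1 occupancy in both promoter types. Peak width went with E2F1 occupancy too. The widest control peak per bidirectional promoter had a median of 345 bp with and 574 bp without an E2F1 peak in GSK126. At one-way promoters, not weighted on GC, the medians were 375.5 and 1464 bp. The part of width in the ratio was not tested.

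**Figure D5:**
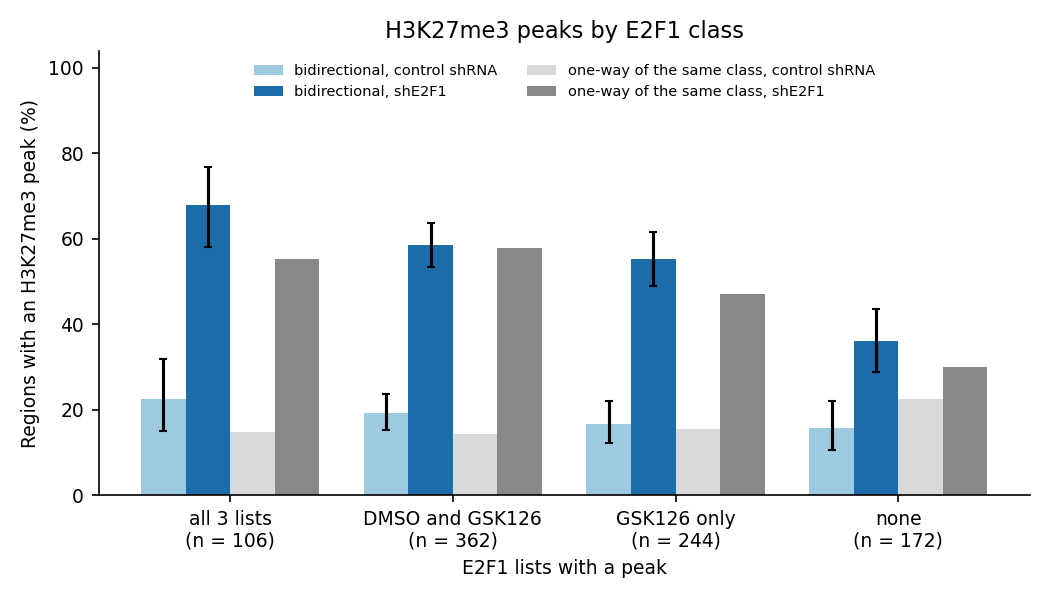
Share of regions with an H3K27me3 peak (vertical axis, percent) in the control shRNA and shE2F1 libraries, for bidirectional promoters grouped by the E2F1 lists in which they have a peak, beside one-way promoters of the same class and GC content. Error bars on the bidirectional shares are 95% intervals of counting error. The shE2F1 share is above the control share in every class, and lowest in the 172 regions without E2F1.

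The gain was larger where E2F1 had been found. It was 45.3 points (35.8 to 54.8) at the 106 regions with E2F1 in all 3 lists, 39.2 (34.0 to 44.4) at the 362 shared by DMSO and GSK126, 38.5 (32.3 to 44.7) at the 244 of GSK126 alone and 20.3 (13.7 to 26.98) at the 172 without E2F1. At one-way promoters of the same classes and GC content the gains were 40.6, 43.6, 31.5 and 7.48 points. Weighted on GC and E2F1 class together, a choice made after the data were seen, one-way promoters gained 32.9 points, which left a difference of 3.21 points. GC content moved with the class as well, at a median of 58.1% in the regions without E2F1 and 61.7% to 62.0% in the 3 other classes, and the part of GC in the differences between classes was not tested.

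The strongest H3K27me3 peaks found with shE2F1 alone lay at RECQL5/SAP30BP, EMC7/PGBD4, RPL9/LIAS and WDR4/NDUFV3, besides a region of ABCE1 and an unnamed gene. RECQL5/SAP30BP, where RECQL5 is a helicase, had an H3K27me3 fold of 9.90 and E2F1 folds of 5.14 in DMSO and 7.52 in GSK126. RPL9/LIAS, with a ribosomal protein and the lipoic acid synthetase, had an H3K27me3 fold of 7.02 and E2F1 folds of 4.66 and 10.2. EMC7/PGBD4 had an H3K27me3 fold of 9.22 and no E2F1 peak in any list. The 7 peaks of the control alone were weak, none reaching a −log10 q of 5. The strongest, at LGI4/FXYD7, reached a −log10 q of 2.53 with a fold of 3.58.

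Some of the strongest E2F1 regions also had an H3K27me3 peak. CENPK/PPWD1, the region with the highest untreated E2F1 fold, had an H3K27me3 fold of 4.31 in the control and 8.57 with shE2F1. KIAA1143/KIF15 had 7.67 and 9.78. SMC1B/RIBC2, TK1/AFMID, NPAT/ATM and PPAT/PAICS had no H3K27me3 peak in either list. PDCD10/SERPINI1, which lacked E2F1, had folds of 12.1 and 11.8. Of the 39 pairs with a DNA repair gene 4 had an H3K27me3 peak in the control and 23 with shE2F1. The counts were 8 and 18 of 27 pairs with a mitosis gene, and 3 and 11 of 19 with a replication gene. In the control these were 10.3%, 29.6% and 15.8%, against 18.3% of all bidirectional promoters and 17.5% of all starts. With shE2F1 they were 58.97%, 66.7% and 57.9%, against 54.3% and 38.5%. The 15 histone pairs gave 1 and 0, and for the 0 a limit of 3 counts allows a share of up to 20.0%.

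The 172 regions without any E2F1 peak had a lower GC content, with a median of 58.1%, and a lower CpG ratio, 0.683 against 0.817 in the regions of all 3 lists. Their GC boxes were fewer too, at 83.7% (77.3% to 88.9%) against 97.2% (92.0% to 99.4%). Their starts were no farther apart, at a median of 124.5 bp. The pairs among them with the closest starts were FAM227A/CBY1, LIPA/IFIT5, ABCD4/VRTN, ENTR1/PMPCA and MFSD9/TMEM182, with starts 7 to 17 bp apart. Of these 5, ENTR1/PMPCA had an H3K27me3 peak, with shE2F1 and a fold of 3.35, and the other regions had no peak in any of the 5 lists.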

How the data were processed

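Libraries were made by ChIP-seq from MDA-MB-231 cells, with chromatin sheared by sonication for E2F1 and by micrococcal nuclease for H3K27me3. Per the labels and the study's methods, the authors trimmed reads with cutadapt 4.5, aligned them to GRCh38 with Bowtie2 2.5.2 and used MACS2 2.2.9.1 to call the peaks of each library separately, narrow for E2F1 and broad for H3K27me3. The deposited lists hold the fold, a ratio of signal to background, and −log10 of the p-value and of the q-value of each peak, besides a score that was not used. Read counts were not used here. For the E2F1 lists depth was taken from the fragments that solve fold and p together, and for the H3K27me3 lists it was not computed.

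Peaks were intersected with the regions at an overlap of 1 bp (Python 3.11.15, pandas 2.3.3, pysam 0.24.0, SciPy 1.17.1). One-way promoters were weighted to the regions in bins of 2% GC and 100 bp of spacing, widened until a bin held 10. Calls of higher or lower used 1.5-fold. The weighting and the solution for fragments were tested on simulated data. Pairs were named by rule, which took the highest untreated fold, the extreme GSK126 over DMSO ratios, the highest −log10 q of H3K27me3 in 1 list alone, long-known pairs, the highest DMSO fold in each cell-cycle list and the closest starts without E2F1. Some pairs that the rule takes are not reported here. The pairs shown for summit offsets, the ribosomal protein examples and the 3 pairs of rare combinations were named after their values were seen. Regions and lists were chosen with earlier results of these data known. Alternatives covered peak thresholds, region and start definitions, the weighting and list length.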

Additional observations from a re-analysis of the deposited data

How the results depend on the processing

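Of 119 alternative values, 95 stayed within the 95% interval of the reported one, 24 moved beyond it and 0 changed direction. Only differences, gains and log2 ratios could change direction, since shares and fold medians are never negative. Another weighting or choice of one-way promoters cannot move the shares and the gain of the bidirectional promoters themselves. A limit of 1056 peaks cannot move the untreated values either. Such fixed values are counted among the 95. Limited to peaks with a −log10 q of 5 or more, occupancy was 46.1% in DMSO and 75.9% in GSK126, the median DMSO fold 7.03, the H3K27me3 gain 12.2 points and its excess over one-way promoters 6.43 points. With a −log10 q of 2 or more the gain was 26.4 points. With the summit inside the region, GSK126 occupancy was 75.3%. Starts of the canonical transcripts gave 984 pairs, with occupancy of 14.8%, 56.7% and 84.2% in untreated, DMSO and GSK126, an untreated excess of 9.83 points and a gain of 40.1 points. Weighting on GC and CpG lowered the excess to 12.7 points in DMSO, 17.5 in GSK126 and 6.58 for the gain, and weighting on GC and E2F1 class to 3.21 for the gain. One-way promoters without any opposite gene start raised the GSK126 excess to 33.7 points. With 1056 peaks in each list, DMSO and GSK126 occupancy fell to 13.8% and 13.2% and the excess to 8.90 and 8.23 points. On scaled fragments, 76.7% of regions were at least 1.5-fold higher in GSK126. The longer E2F motif, with a further T in front, was in excess by 4.91 points, and the motif in the 300 bp around the midpoint by 5.17 points. The strongest summit stayed nearer to the cell-cycle gene within its interval at the stricter threshold, with merged regions and with canonical starts, alternatives chosen after the data were seen. Each condition has 1 library, intervals cover counting error only, and the absence of a peak depends on depth.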
